A study of Solanum lycopersicum with 18 samples.

Results

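The wide H3K27me3 domains of wild-type tomato shoot apices that the *crel-2* mutant kept whole are described here. A wild-type or *crel-2* region was the interval shared, by at least 1 bp, by the peaks of both replicates of that genotype. The members were the wild-type regions on chromosomes 1 to 12 that were 8000 bp or wider and had 90% or more of their bases inside *crel-2* regions. Of 15216 wild-type regions on these chromosomes 1469 reached 8000 bp, and 946 of these met the rule. They made up 6.22% of the wild-type regions and 24.8% of their bases, or 12.6 Mb of 50.8 Mb. The members were chosen by the widths and the overlap of the wild-type and *crel-2* peaks, so that coverage in *crel-2* and every other difference between the genotypes at them is given as a description without a test. A cover of 90% or more was found at 33.7% of all wild-type regions, at 30.4% of those under 8000 bp and at 64.4% of those of 8000 bp or wider.

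H3K27me3 is the trimethylation of a lysine in the tail of histone H3. It is written by Polycomb Repressive Complex 2 (PRC2), whose catalytic subunit adds the methyl groups, and it marks genes that are kept silent in a given organ or stage. In plants the mark typically lies over gene bodies, and neighbouring marked genes can form continuous domains of many kilobases. VERNALIZATION INSENSITIVE 3-LIKE (VIL) proteins carry a PHD finger, work together with PRC2 and help the complex to accumulate the mark at its targets. They are best known in Arabidopsis from the silencing of the flowering repressor *FLC*. From a first site of binding, PRC2 can also spread the mark along chromatin, since one of its subunits recognises the mark that the complex has made.

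The comparison had 2 wild-type and 2 *crel-2* ChIP-seq libraries. Both genotypes were *Solanum lycopersicum* grown in soil for 28 days under long days, and 0.8 g of shoot apices with the youngest expanding leaves was fixed for each replicate. *crel-2* is a fast neutron allele from a mutant population in the cultivar M82, with a deletion that removes the first exons of *CRAWLING ELEPHANT* (*CREL*), a VIL gene. A single mutant line was profiled, so that any other lesion it carries cannot be told apart from the loss of *CREL*. A shoot apex sample mixes meristem and leaf primordia, and a peak does not tell in which of the cells the mark was present.

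The wild-type lists held 17718 and 16098 peaks on the 12 chromosomes and covered 58.3 Mb and 55.8 Mb. The *crel-2* lists held 8734 and 8914 peaks and covered 41.0 Mb and 43.3 Mb. Peaks of 8000 bp or wider differed less in number, with 1718 and 1664 in wild type and 1482 and 1601 in *crel-2*. Both *crel-2* counts were still below both wild-type counts. The lists give the start and the end of each peak only, so that the height of a peak and the reads behind it were not analysed here, and their part in the results was not tested. No list has 2 peaks less than 499 bp apart. All positions are on the SL2.40 build named in the lists, and the genes in the domains were not analysed here.

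The wider a wild-type domain was, the more often it was kept. Of the domains of 8000 bp to under 10000 bp, 323 of 547 were kept, or 59.0% (95% Wilson interval 54.9 to 63.1). The share was 62.6% (377 of 602; 58.7 to 66.4) from 10000 bp and 72.7% (149 of 205; 66.2 to 78.3) from 15000 bp. It reached 82.4% (75 of 91; 73.3 to 88.9) from 20000 bp, and 22 of the 24 domains of 30000 bp or wider were kept, or 91.7% (74.2 to 97.7). The rise therefore continued within the domains, across the 8000 bp limit of the rule. In narrower regions 90% cover was less common, with 48.5% from 4000 bp to under 8000 bp and 21.1% under 1000 bp. The intervals cover counting error only and treat the regions as independent, although all come from the same 4 libraries.

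**Figure D1:**
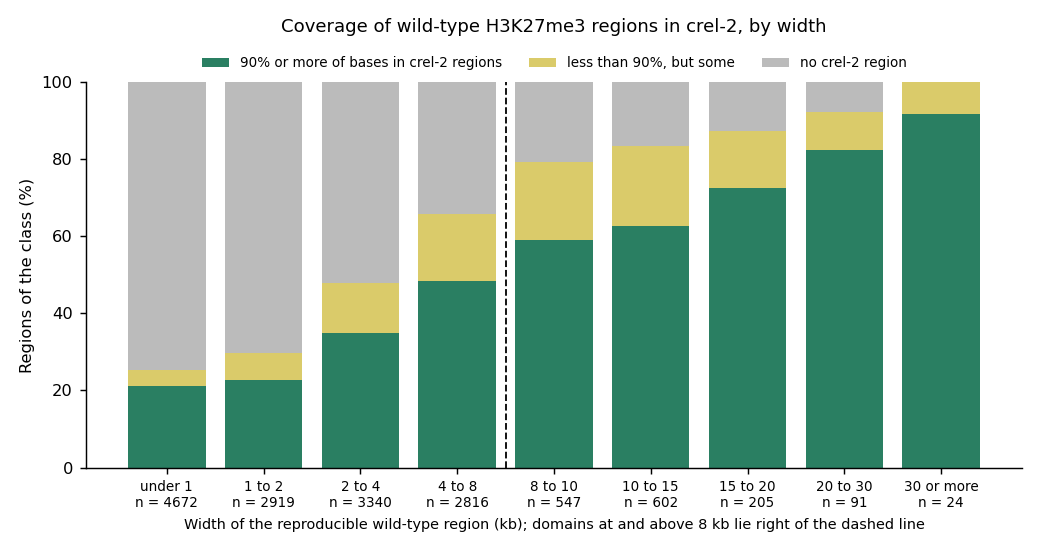
Share of the reproducible wild-type H3K27me3 regions of each width class (x axis, kb, with the number of regions) that had 90% or more of their bases in *crel-2* regions (green), less than 90% but some (yellow) or no *crel-2* region (grey). The green share rises from 21.1% under 1 kb to 91.7% at 30 kb or more.

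Of the other wide domains, 277 were partly covered in *crel-2* and 246 had no base in a *crel-2* region, 18.9% and 16.7% of the 1469. Each step between the extremes held fewer domains than the extremes. Cover of 10% to under 80% was found at 40, 56, 53 and 38 domains in the steps 10 to 30, 30 to 50, 50 to 70 and 70 to 80%, and 276 had less than 10%. From 80% to under 90% there were 60 domains, and from 90% to under 95% there were 61. At the upper end 668 domains were covered to 100%, and 217 from 95% to under 100%. The kept domains had a median width of 11373 bp in wild type, against 10522 bp for the partly covered and 10367 bp for the uncovered ones. Their middle 50% ran from 9228 to 15250 bp and the whole range from 8000 to 63657 bp.

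Inside the kept domains the peaks ran without a break in both mutant libraries at nearly all members. By the rule each lay under a single peak of each wild-type replicate. The rule also limits the share of a domain outside *crel-2* regions, and with it the width of any gap inside. The *crel-2* counts that follow are therefore set in part by the choice of members. The same counts for other regions are not given here. In *crel-2* replicate 1, 932 of the 946 lay under a single peak, and in replicate 2 it was 938. Peaks of *crel-2* replicate 1 covered 739 domains to the last base and those of replicate 2 covered 752. Of all bases of the domains, 0.735% were outside *crel-2* regions. They lay mostly at the edges, with 45940 bases at left edges of 174 domains and 32006 at right edges of 155. Only 20 domains were crossed by a gap between 2 *crel-2* regions. Those gaps measured from 501 to 1682 bp, with a median of 610 bp, close to the smallest distance that the lists keep between peaks.

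The peaks over kept domains were wider in *crel-2* than in wild type. The span of the peaks that touched a domain had a median of 12030 bp in wild-type replicate 1 and 12133 bp in replicate 2. In *crel-2* it was 15301 bp in replicate 1 and 16052 bp in replicate 2. The values of the genotypes did not overlap, and the difference of 3595 bp between the means of these medians was larger than the spread within either genotype (wild type 12081 ± 72.5 bp, *crel-2* 15676 ± 531 bp, SD, n = 2). The mean span gave the same order, with 13978 and 14085 bp in wild type and 18556 and 19131 bp in *crel-2*, a ratio of 1.34. With 2 libraries per genotype the smallest 2-sided p of an exact permutation test is 0.333, so that no such test was run, and the choice of members by 90% cover keeps out domains that became much narrower.

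**Figure D2:**
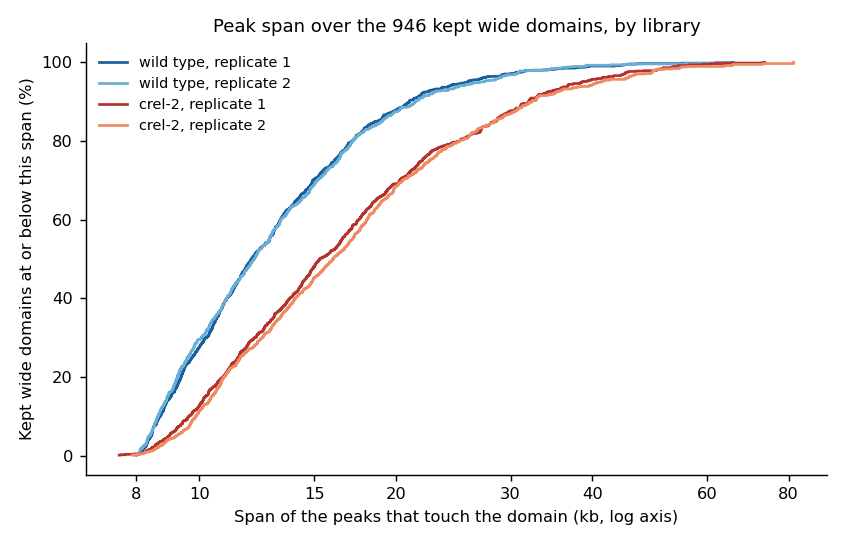
Cumulative share of the 946 kept domains (y axis, %) against the span of the peaks that touch each domain (x axis, kb, log axis), 1 line per library. The lines of the wild-type replicates run together (medians 12030 and 12133 bp), and those of the *crel-2* replicates lie to the right (15301 and 16052 bp).

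Domain by domain, both *crel-2* spans were wider than both wild-type spans at 702 of the 946 kept domains, or 74.2%. Among all 6764 wild-type regions with a peak in every list, kept or not and of any width, this was so at 60.2%. The reverse order was found at 61 kept domains, or 6.45%, against 17.9% of those 6764 regions, and at the other 183 the spans of the genotypes overlapped. At the left edge both *crel-2* peaks ended outside both wild-type peaks in 578 domains (61.1%, against 50.9% of the 6764 regions), and at the right edge in 647 (68.4%, against 56.1%). The *crel-2* ends lay inside the wild-type ends at 71 left and 57 right edges (7.51% and 6.03%, against 17% at either edge of the 6764 regions). The rule keeps out domains that became much narrower, and the 6764 regions had no such limit. These differences from the 6764 regions therefore follow in part from the choice of members. Both ends moved outward at 457 kept domains and neither end at 178.

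The size of the outward shift exceeded the distance between replicates. The left ends of the 2 wild-type replicates lay 208 bp apart in the median and those of the *crel-2* replicates 180 bp. The mean *crel-2* end lay 576 bp outside the mean wild-type end. At right edges the replicate distances were 185 and 165 bp and the outward shift was 534 bp. At both edges the shift between genotypes was thus larger than the distance between the replicates of either genotype. The rule keeps out domains whose *crel-2* ends lay far inside, so that the outward shift follows in part from the choice of members. The replicate distances, in contrast, have no direction.

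Counted from the edges of the wild-type region, the *crel-2* regions that touched a kept domain ran on for a median of 1662 bp over both sides together, with a middle 50% from 417 to 5329 bp. The extension was over 1000 bp at 574 domains (60.7%), over 5000 bp at 251 (26.5%) and over 10000 bp at 149 (15.8%). A side counted as extended when the *crel-2* region ran more than 500 bp past it. On this count 281 domains were extended on both sides, 186 on the left only, 183 on the right only and 296 on neither. Left and right sides were thus about equally often extended, with medians of 490 and 470 bp. The extension did not grow with the width of the domain, with medians of 1407 bp from 8000 bp, 1819 bp from 10000 bp, 1477 bp from 15000 bp and 1479 bp from 20000 bp.

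Since the rule asks that *crel-2* regions contain the domain, an outward extension of some size follows from it in part. The rule was for this reason also applied with the genotypes exchanged, a comparison chosen after seeing the data. Of the 1411 *crel-2* regions of 8000 bp or wider on the 12 chromosomes, 557 (39.5%) had 90% or more of their bases in wild-type regions. The wild-type regions ran past these by a median of 19 bp, with a 75th percentile of 315 bp, and by more than 1000 bp at 12.4% of them. Single libraries gave the same order. Domains of a wild-type replicate covered to 90% by a *crel-2* replicate were exceeded by medians of 1440 to 1704 bp in the 4 pairings, and those of a *crel-2* replicate covered by a wild-type replicate by 43 to 72 bp. Between the wild-type replicates the medians were 164 and 227 bp, and between the *crel-2* replicates 284 and 95 bp.

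The bases next to the kept domains lay more often under a peak in *crel-2* than in wild type, in every distance class out to 20000 bp. In the first 1000 bp outside the edges 21.4% and 18.5% of the bases lay under a wild-type peak and 58.7% and 61.6% under a *crel-2* peak. From 2000 to 5000 bp the values were 26.0% and 25.3% in wild type and 35.5% and 37.3% in *crel-2*. From 10000 to 20000 bp they were 28.4% and 27.7% against 30.1% and 31.2%. No difference beyond the replicates remained from 20000 to 50000 bp, with 23.5% and 22.7% in wild type and 22.6% and 23.5% in *crel-2*. Over the first 5000 bp the mean was 23.6% ± 0.992 in wild type and 42.5% ± 1.67 in *crel-2* (SD, n = 2 libraries). One of the wild-type peaks ends at each edge by definition, and no list has peaks less than 499 bp apart. Both limit the wild-type value just outside the edge.

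Around the other wide domains the flanks went the other way. The classes were set by *crel-2* cover of the domain itself, which fixes in part what the *crel-2* lists can hold next to its edges. Within 5000 bp of the 277 partly covered domains, 22.6% and 20.6% of the bases lay under a wild-type peak and 8.97% and 9.40% under a *crel-2* peak. Around the 246 uncovered domains it was 22.5% and 20.1% in wild type and 0.780% and 0.982% in *crel-2*. The wild-type means of the kept, the partly covered and the uncovered class were 23.6%, 21.6% and 21.3%.

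**Figure D3:**
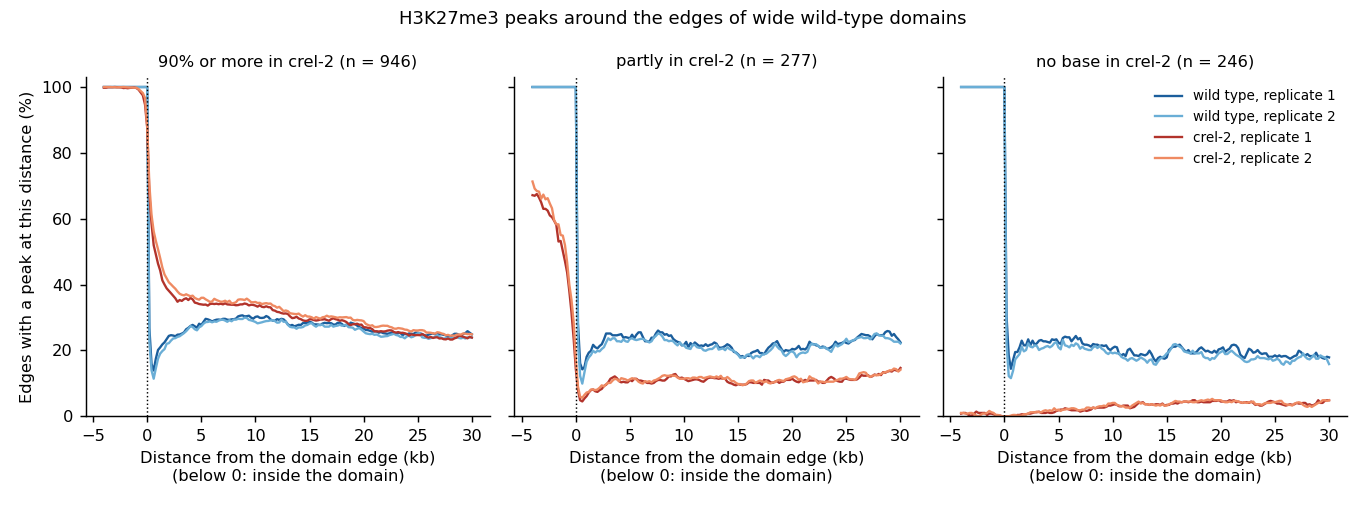
Share of domain edges (y axis, %) with an H3K27me3 peak at a given distance from the edge (x axis, kb; values below 0 lie inside the domain), for the kept, the partly covered and the uncovered wide wild-type domains, 1 line per library. Outside kept domains both *crel-2* lines lie above both wild-type lines up to 18600 bp, and outside the other classes they lie below at all 150 distances plotted.

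Part of the extension joined regions that were separate among those shared by both wild-type replicates. The kept domains were touched by 925 *crel-2* regions, which covered 15.4 Mb, of which 2.90 Mb lay outside the kept domains. Of these 2.90 Mb, 32.7% lay in other reproducible wild-type regions, 25.4% under wild-type peaks not shared by the replicates and 41.9%, or 1.22 Mb, under no wild-type peak. A single wild-type region was held by 666 of the 925 *crel-2* regions, 2 by 171, and 3 or more by 88, up to 7. Of the kept domains 20 were touched by more than 1 *crel-2* region. The rule keeps out domains split by wide gaps and sets no limit on joining, so that these counts cannot be set against each other. The same counts over all regions are not given here. Of 686 pairs of consecutive kept domains with no other wide domain between them, 41 were joined in 1 *crel-2* region. The joined gaps had a median of 2325 bp and reached 29815 bp. Of the 41 pairs less than 2000 bp apart 14 were joined, and of the 74 pairs less than 5000 bp apart 30 were. Some joined pairs already lay under 1 peak of a single wild-type replicate. The chromosome 2 domains from 43348866 and from 43360427, for example, shared a peak of 72918 bp in wild-type replicate 2. Such pairs were not counted apart.

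Extension was also seen where no other region shared by both wild-type replicates was joined. For 629 kept domains (66.5%) the *crel-2* region held no other wild-type region. These ran past the domain by a median of 763 bp, with a middle 50% from 193 to 1812 bp, and 276 of them (43.9%) by more than 1000 bp. Of their extension of 0.749 Mb, 63.8% lay under no wild-type peak of either replicate. The rest lay under a wild-type peak, so that peaks not shared by the replicates can have been taken in. The other 317 kept domains had a median of 9092 bp. This order follows from the split in part, since a *crel-2* region takes in another wild-type region only by running across the gap to it.

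The 10 widest kept domains included some with and some without a long extension. The widest lay on chromosome 1 from 1839807 to 1903463 and spanned 63657 bp. Its peak was 65702 and 63657 bp wide in the wild-type replicates and 63886 and 63669 bp in the *crel-2* replicates, so that its width was within the spread of the wild-type replicates. The second lay on chromosome 2 from 43360427 to 43421783, over 61357 bp. Here wild-type replicate 1 had a peak of 61812 bp and the other 3 libraries had 72918, 73513 and 72989 bp, so that the joined form was already present in 1 wild-type replicate. The third, on chromosome 2 from 36873932 to 36928785, was 54854 and 55617 bp wide in wild type and 59086 and 56077 bp in *crel-2*.

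Chromosome 2 held 5 of these 10 domains. One from 40147006 to 40191811 measured 44970 and 44966 bp in wild type and 50547 and 51483 bp in *crel-2*, wider on both sides. One from 30536363 to 30578997 was among the few that became narrower, with 43281 and 42635 bp in wild type and 40791 and 40744 bp in *crel-2*. Its left end lay 1923 and 2012 bp inside the wild-type region in the mutant replicates, which left 95.3% of it covered. One from 36639796 to 36678923 hardly differed, with 39358 and 39128 bp in wild type and 39608 and 39747 bp in *crel-2*.

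Outside chromosomes 1 and 2 the 10 widest included a domain on chromosome 7 from 60376820 to 60423377, with 46970 and 46601 bp in wild type and 48040 and 48978 bp in *crel-2*. On chromosome 4 the domain from 2503108 to 2542021 went from 38964 and 39214 bp to 45460 and 46686 bp. The second of chromosome 4, from 4223495 to 4261540, shows how replicates can differ, since its 38046 and 38924 bp in wild type became 60760 bp in *crel-2* replicate 1 but 40471 bp in replicate 2. On chromosome 6 the domain from 43689217 to 43726525 grew on its right side, from 37615 and 37422 bp to 46686 and 46698 bp. Of these 10 domains, both *crel-2* spans exceeded both wild-type spans at 8, and fell below them at the 1 on chromosome 2 that receded.

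The widest domains of the remaining chromosomes had the same variety. On chromosome 3 (53376560 to 53407397), chromosome 9 (61762095 to 61796426) and chromosome 10 (3527087 to 3563052) the *crel-2* regions ran past the domain by no more than 284 bp. On chromosome 12 (62004273 to 62034618) the extension was 74 bp and on chromosome 11 (49983084 to 50007800) it was 1932 bp. Large extensions were found on chromosomes 5 and 8. On chromosome 5 the domain from 60235822 to 60259324 had peaks of 23503 and 24582 bp in wild type and 42327 and 42601 bp in *crel-2*. The added 18649 bp on its left took in separate wild-type peaks of 13409 bp in replicate 1 and of 10611 and 1631 bp in replicate 2, beside 1 short peak in each. On chromosome 8 the domain from 49135158 to 49163958 had peaks of 31551 and 28801 bp in wild type. In *crel-2* 1 peak of 56184 or 54745 bp held it together with its left neighbour, from 49110671 to 49132565 and also kept.

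**Figure D4:**
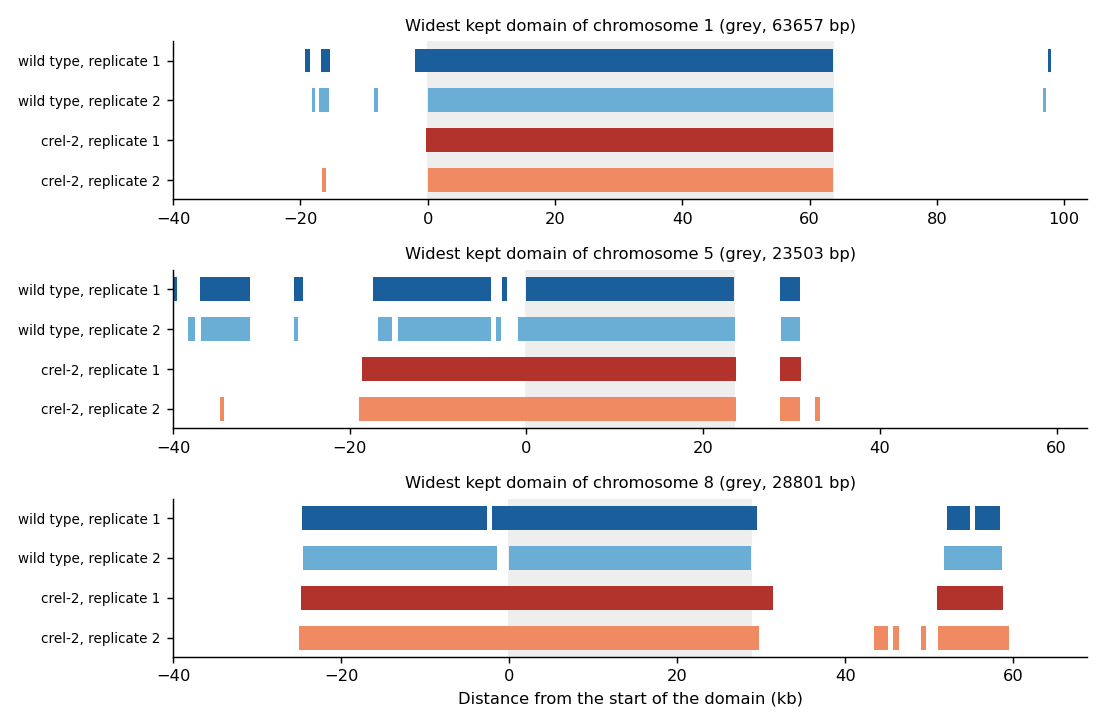
Peaks of the 4 libraries (coloured bars) around the widest kept domains of chromosomes 1, 5 and 8 (grey, 63657, 23503 and 28801 bp), against the distance from the start of the domain (x axis, kb). The first has the same ends in *crel-2*, and in the other 2 a single *crel-2* peak takes in wild-type peaks on the left that are separate from the domain.

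At the 3 largest extensions the wild-type replicates themselves differed in width. The domain on chromosome 2 from 43348866 to 43359880, with 62035 bp, is the left neighbour of the second widest domain, and wild-type replicate 2 also joined the pair. On chromosome 2 from 30998402 to 31008473 the peaks were 19565 and 10072 bp wide in wild type and 53227 and 81427 bp in *crel-2*. On chromosome 10 from 7343512 to 7354892 they were 22829 and 11381 bp against 54181 and 54362 bp. In both of the latter cases the narrower mutant span was 2.72 and 2.37 times the wider wild-type span. The *crel-2* region that held the most kept domains, 3 of them, lay on chromosome 8 from 55003253 to 55053210 and was 49958 bp wide, with 88.7% of it under a wild-type peak.

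Extension into sequence without wild-type peaks was largest, among the domains alone in their *crel-2* region, on chromosome 10 from 6298448 to 6314866. This domain was named after its values were seen. Its peaks measured 17343 and 16419 bp in wild type and 30998 and 32073 bp in *crel-2*, and 11328 bp of the 14565 bp added had no peak in either wild-type list. Counted on the regions shared by both replicates, joining was in turn not a rule for close neighbours. The domains of chromosome 2 from 37341103 to 37360017 and from 37360521 to 37372015 were separated by 503 bp and joined in *crel-2*. Wild-type replicate 2 already held both in 1 peak of 30913 bp. A pair of chromosome 8 separated by 505 bp (485416 to 504467, then 504973 to 514201) was not joined. Neither was a pair of chromosome 2 separated by 510 bp (37215530 to 37228986, then 37229497 to 37249651). This last pair lay under 1 peak in wild-type replicate 2 (34451 bp) and in *crel-2* replicate 1 (36760 bp). Of the mutant libraries only replicate 2 kept it apart.

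At the limits of the rule the members did not stand apart. The lowest covers among kept domains were 90.3% (chromosome 7, 59916706 to 59927862), 90.3% (chromosome 5, 61794748 to 61807495) and 90.5% (chromosome 9, 15034162 to 15048730). The domain next below the limit, on chromosome 11 from 9124416 to 9132470, had a cover of 89.97%. It was followed by 2 domains of chromosome 3, with 89.9% from 63219980 to 63231802 and 89.6% from 41277470 to 41287127. The narrowest members measured 8000, 8006 and 8006 bp, and the widest regions of 90% cover just below the limit 7992, 7972 and 7971 bp.

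Kept domains lay in stretches of the genome where other wild-type regions were kept as well. Within 20 kb of a kept domain there were 1824 other wild-type regions, of which 484 had no *crel-2* region, or 26.5% (95% Wilson interval 24.6 to 28.6). Among all wild-type regions, kept domains included, the share was 55.7%. Around partly covered wide domains it was 65.7% (372 of 566; 61.7 to 69.5) and around uncovered ones 86.0% (474 of 551; 82.9 to 88.7). Restricting the count to neighbours under 8000 bp gave 26.9%, 70.4% and 89.6% in the same order. On each of the 12 chromosomes the share near kept domains was below that of all regions of the chromosome, with values from 13.3% on chromosome 11 to 34.3% on chromosome 5.

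The share changed with distance. Without a *crel-2* region were 7.48% of the 214 regions less than 1000 bp from a kept domain. Of these 214 regions 116 were touched by a *crel-2* region that also touched a kept domain. The share without any was 19.2% of 313 from 2000 bp, 37.8% of 706 from 10000 bp and 55.2% of 1500 from 20000 bp. Beyond 50000 bp it no longer rose, with 65.4% of 1713 up to 100000 bp and 65.5% of 9233 farther away. Width moved with distance, with median widths from 1700 bp in the farthest class to 2325 bp in the nearest. Among neighbours of 2000 to under 4000 bp alone, the share without a *crel-2* region was 5.45% of 55 at less than 1000 bp, 38.3% of 180 from 10000 bp and 57.1% of 2087 from 100000 bp. Among those under 2000 bp it was 13.3% of 98, 49.0% of 337 and 78.2% of 5097 at the same distances. Beside the share of 55.7% for all wild-type regions, regions up to 20000 bp away lacked a *crel-2* region less often and those from 50000 bp more often. The share for all regions includes the kept domains, which by the rule always have a *crel-2* region. It is thus lower than the share among the other regions, and no turning point can be read from it.

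**Figure D5:**
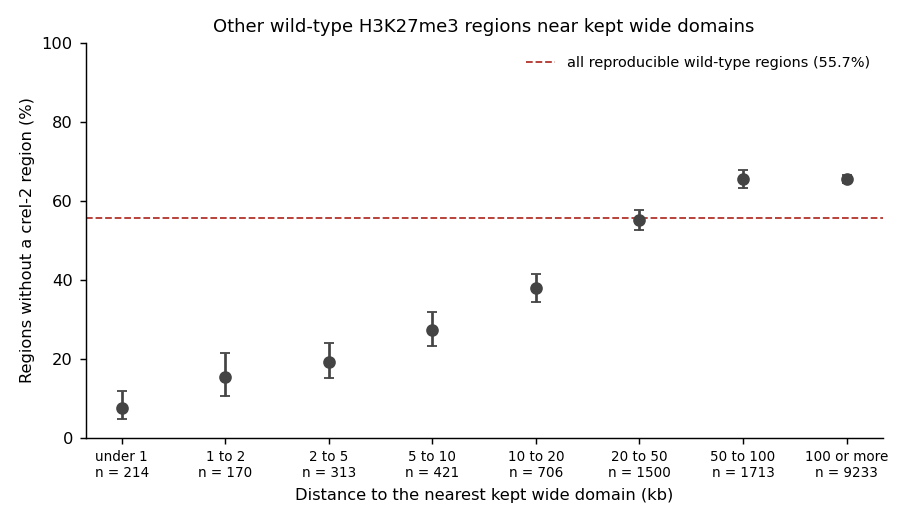
Share of other wild-type regions without a *crel-2* region (y axis, %, points with 95% Wilson intervals) by distance to the nearest kept wide domain (x axis, kb, with the number of regions). The share climbs from 7.48% under 1 kb to 65.5% at 100 kb or more, and the dashed line gives 55.7% for all wild-type regions, kept domains included.

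The next wide domains along the chromosome also differed with the fate of a domain. Among all wide domains 64.4% were kept and 16.7% uncovered. Taking the next wide domain on each side, 72.7% of 1886 neighbours of kept domains were kept and 11.1% were uncovered. For the neighbours of partly covered domains these shares were 56.3% and 19.7% of 542, and for those of uncovered domains 43.0% and 35.0% of 486, so that kept neighbours were the most frequent in each class. The median gap over all 934 pairs of consecutive kept domains was 181581 bp, and it was 91698 bp over the 686 pairs with no other wide domain between them.

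All 12 chromosomes had kept domains, between 48 on chromosomes 5 and 11 and 112 on chromosome 1. The share of wide domains that were kept ran from 56.7% on chromosome 10 (55 of 97; 46.8 to 66.1) to 79.3% on chromosome 12 (65 of 82; 69.3 to 86.6). The other 10 chromosomes lay between 60.7% and 69.6%, and their intervals overlapped. On every chromosome wide domains were kept more often than wild-type regions of all widths. The median extension, which cannot be negative by its definition, ran from 1190 bp on chromosome 4 to 2035 bp on chromosome 11. Per length up to the last wild-type region, chromosome 6 was richest with 2.35 kept domains per Mb, followed by chromosome 2 with 2.05, and chromosome 5 was poorest with 0.740.

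Along the chromosomes, wide domains were kept more often in the interior than towards the ends. In the central 50% of the chromosomes 285 of 370 wide domains were kept, or 77.0% (72.5 to 81.0), and in the outer 50% 661 of 1099, or 60.1% (57.2 to 63.0). For regions under 8000 bp the shares were 46.2% and 24.1%, so that narrower regions had the same order. Of the kept domains 30.1% lay in the central 50% (27.3 to 33.1), of the partly covered ones 20.6% and of the uncovered ones 11.4% (8.0 to 16.0). This order of kept and uncovered domains held on 12 of 12 chromosomes. Of all wild-type regions 28.2% lay in the central 50%, which is inside the interval of the kept domains. By chromosome, the share of kept domains in the central 50% ran from 2.70% on chromosome 9 to 69.2% on chromosome 12. When each chromosome was divided into steps of 10% of its length, the lowest share of wide domains kept was found in the last step, with 158 of 322 or 49.1%, and the first step had 139 of 223 or 62.3%. The extension was also smallest in the last step, with a median of 627 bp, against 1272 to 2578 bp in the other steps.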

How the data were processed

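H3K27me3 peaks of 2 wild-type and 2 *crel-2* shoot apex libraries were used as deposited, as chromosome, start and end of each peak. Per the methods of the study, reads were aligned with Bowtie2, filtered on mapping quality, freed of duplicates with SAMtools, and the authors called peaks with HOMER in each replicate. The methods name the SL3.0 build, whereas the lists use SL2.40 sequence names, which were kept. The methods also state that reads were scaled to the lowest depth, without saying whether the deposited lists were called before or after that step. Read numbers are given with the study and were not used here, peak caller settings are not given in the sources used here, and the lists hold neither score nor height. The deposited RNA-seq table holds the authors' own comparison (fold changes and p-values) and was not used, and input libraries were not analysed here.

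Regions, covers, spans and flanks were computed with Python 3.11.15 and numpy 2.4.6, drawn with matplotlib 3.10.9 and tested on simulated intervals. Extension is the length by which the *crel-2* regions touching a domain run past its edges. Neighbours lay within 20000 bp, and chromosome length was taken to the last wild-type region. Shares have 95% Wilson intervals, which cover counting error only. No test was run, since the rule used this contrast. Each replicate was a separate tissue sample, per the methods of the study. Named domains were the 10 widest, the widest of each chromosome, those at the limits of the rule, the 3 largest extensions, the *crel-2* regions holding most kept domains and the 3 closest pairs. The members and lists were chosen with earlier results of these data known. Other limits of width, cover, overlap and distance, merged replicates, joined regions and each replicate left out were tried.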

Additional observations from a re-analysis of the deposited data

How the results depend on the processing

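The 7 summary values were recomputed under 21 settings in all, not every value under each, and 60 of 114 values stayed close to the value as reported. Close meant within its spread or 95% interval. For the number of kept domains a fixed range around the reported count was used instead. Of the values 0 changed sign, but only the difference in flank cover could do so. The number of kept domains was 1858 from 5000 bp and 421 from 12000 bp, and without 1 replicate it lay between 965 and 1021. The share of wide domains kept was 68.5% at 80% cover, 60.2% at 95%, 45.5% at 100%, 58.2% from 5000 bp, 71.0% from 12000 bp, 60.9% with the replicates of both genotypes merged, 68.3% with those of *crel-2* merged, 61.9% with 50% overlap of replicate peaks and 59.6% with regions up to 1000 bp apart joined. Without 1 replicate it was 58.8 to 67.1%. In the same settings the median width was 11464 bp at 95% cover, 11610.5 bp at 100%, 8080.5 bp from 5000 bp, 15884 bp from 12000 bp, 11704 bp with both merged, 11464 bp with 50% overlap and 11943 bp with regions joined, and 11346 to 11605 bp without 1 replicate.

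The median extension was 1434 bp at 80% cover, 2319.5 bp at 100%, 1393 bp from 5000 bp, 1434 bp with both merged, 2323 bp with *crel-2* merged and 1180 to 2034 bp without 1 replicate. The difference in flank cover (*crel-2* minus wild type, percentage points) was 25.7 at 100% cover, 31.1 over 2000 bp, 7.29 over 20000 bp and 17.3 to 20.8 without 1 replicate. The share of neighbours without a *crel-2* region was 29.1% at 80% cover, 24.4% at 95%, 17.1% at 100%, 29.3% from 5000 bp, 29.8% with both merged, 23.8% with *crel-2* merged, 34.1% with 50% overlap, 29.5% with regions joined, 19.4% within 10000 bp, 39.5% within 50000 bp and 25.3 to 30.6% without 1 replicate. The share of kept domains in the central 50% was 33.4% at 100% cover, 35.7% from 5000 bp, 24.7% from 12000 bp and 29.7 to 32.3% without 1 replicate. With the genotypes exchanged, chosen after seeing the data, there were 557 domains, a share of 39.5%, a median width of 12426 bp and a median extension of 19 bp. The lists carry no score, so that a stricter threshold was tried only by leaving out peaks under 1000 bp. No paired analysis was possible because no result comes from a test. Causes of these shifts were not tested.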

Other observations

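The rule for the kept domains leaves out the peaks on unplaced sequence. There the same steps gave 374 wild-type regions, of which 8 were 8000 bp or wider. Of these 8, 7 were covered to 100% in *crel-2*, and the *crel-2* regions ran past all 7 on both sides. The widest measured 10988 bp, from 11891516 to 11902503, and its extension was 306 bp on the left and 84 bp on the right. The longest extension on 1 side, 2175 bp, was found on the right of the domain from 13305 to 21376. The remaining domain, from 4471007 to 4479039, had 76.5% of its bases in *crel-2* regions and no extension on either side. Since the order of unplaced sequence is not that of a chromosome, distances between these regions were not used.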
